A study of Mus musculus with 6 samples.

Results

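A set of 7 genes of the NF-kB pathway and its surroundings were followed through coronal brain sections of ageing mice: Nfkbia, Nfkb2, Nfkb1, Icam1, Vcam1, Cebpb and Cebpd, out of the 32285 genes in the deposited tables. They are a fixed list, and the list was chosen from age differences already seen in these same sections. Their age differences are therefore given below as a description. The fits over all genes include the members, but their calls support nothing here. The other gene lists below were also chosen with earlier results of these data known, so calls of their genes are a description too. Spatial transcriptomes had been recorded with Visium, an assay that captures the RNA of a frozen tissue slice on an array of spots with known barcodes, where each captured transcript is counted as a unique molecular identifier (UMI). Male mice of the inbred strain C57BL/6J, with no other genotype or treatment in the labels, were 6 months (young), 18 months (middle) or 21 months (old) of age. There were 6 sections of 16 µm, 2 at each age. The labels name 2 males for an age, and every section is treated here as its own animal. Both young sections, middle 1 and old 1 lay on slide 1, and middle 2 and old 2 lay on slide 2, and slide cannot be fully told apart from age.

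NF-kB is a family of dimeric transcription factors that waits in the cytoplasm, bound by inhibitors. Cytokine receptors, Toll-like receptors and cell stress activate the IKK kinases, which mark the inhibitor for destruction, and the freed dimer enters the nucleus and switches on inflammatory and survival genes. Among those genes is the inhibitor itself, which makes Nfkbia transcripts a classical feedback readout, and the adhesion molecules that let leukocytes hold on to vessel walls. In the brain, this pathway is best known from endothelial cells, glia and the border tissues, the meninges and the choroid plexus.

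The members fall into 3 roles. Nfkbia, on the minus strand of chromosome 12 at 55489410 to 55492647 (GRCm38, as for all positions here), encodes the inhibitor IkB-alpha. Nfkb2 (chromosome 19, 46304320 to 46312385, plus strand) encodes p100, which is both an inhibitor and the precursor of the subunit p52 of the non-canonical pathway. Nfkb1 (chromosome 3, 135584655 to 135691547, minus strand) encodes p105, the precursor of the subunit p50. Icam1 (chromosome 9, 21015985 to 21028817, plus strand) and Vcam1 (chromosome 3, 116109949 to 116129688, minus strand) encode the cell surface ligands of the leukocyte integrins LFA-1 and VLA-4. Cebpb (chromosome 2, 167688915 to 167690418, plus strand) and Cebpd (chromosome 16, 15887286 to 15891031, plus strand) encode C/EBP-beta and C/EBP-delta, transcription factors of the acute phase response that act on many of the same genes as NF-kB. All of them are annotated as protein-coding genes.

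Promoter sequence was read for those members that had an entry in the RefSeq promoter table (GRCm38.p6, 250 bases before to 50 bases after a transcript start). There were 6 windows of 4 members, since Nfkb2 had 3 starts. Of these, 3 are shown, those of Nfkbia and Icam1, which were lower with age in most regions, and 1 window of Nfkb2, which was higher. Capitals mark a match to the NF-kB consensus or to GGAAATTCC on either strand, and each sequence runs 5′ to 3′ along its gene.
Nfkbia promoter, chr12:55492598-55492897, minus strand: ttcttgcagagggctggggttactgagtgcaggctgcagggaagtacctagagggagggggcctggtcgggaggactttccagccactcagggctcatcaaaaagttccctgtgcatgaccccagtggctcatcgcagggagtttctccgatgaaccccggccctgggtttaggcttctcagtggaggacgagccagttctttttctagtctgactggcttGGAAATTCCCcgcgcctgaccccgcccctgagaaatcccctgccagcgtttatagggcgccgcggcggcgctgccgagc
Icam1 promoter, chr9:21015690-21015989, plus strand: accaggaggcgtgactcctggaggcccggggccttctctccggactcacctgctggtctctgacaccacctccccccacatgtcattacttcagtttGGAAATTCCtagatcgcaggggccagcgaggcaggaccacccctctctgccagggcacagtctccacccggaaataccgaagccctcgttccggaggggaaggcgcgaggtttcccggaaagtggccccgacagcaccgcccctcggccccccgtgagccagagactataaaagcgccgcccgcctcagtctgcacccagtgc
Nfkb2 promoter, chr19:46304487-46304786, plus strand: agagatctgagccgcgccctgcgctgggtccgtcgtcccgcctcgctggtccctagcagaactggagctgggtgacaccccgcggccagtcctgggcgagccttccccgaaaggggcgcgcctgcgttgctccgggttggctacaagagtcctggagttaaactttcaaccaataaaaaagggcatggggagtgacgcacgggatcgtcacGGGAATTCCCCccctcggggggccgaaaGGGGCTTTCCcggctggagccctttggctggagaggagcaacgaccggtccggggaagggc

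The NF-kB consensus was found in the Nfkbia window, where it began 29 bases before the start, and in all 3 windows of Nfkb2. In the Nfkb2 window shown, the first capitals are 3 overlapping matches that began 39 and 38 bases before the start, and the second is a match that began 11 bases before it. Of 32851 promoter windows of the same length, 2779 (8.46%) held the consensus on either strand, against 4 of the 6 member windows, or 2 of the 4 members. Of these 4 windows 3 belong to Nfkb2, and 2 of the 3 overlap and share a match. The Icam1 window did not match that consensus but held GGAAATTCC, beginning 153 bases before the start, and the same 9 letters lie inside the Nfkbia match. GGAAATTCC, a motif picked after these sequences had been seen, occurred in 104 of the windows (0.317%). The window of Cebpb (chr2:167688665-167688964, plus strand) held neither motif. These matches describe letters in a window and were not tied to binding in these sections.

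A section held between 2573 and 2973 spots and between 60939185 and 77557934 UMIs, and 16741 of 16743 spots were kept. The median UMIs per spot were highest in young 1 (30093) and lowest in old 2 (20370). All sections shared 1920 spot barcodes, which in this assay are grid positions and not cells. Clustering of the spots by genes other than the members gave 20 clusters, of which 16 took the name of 1 of 9 regions from marker genes, and 1527 spots stayed unnamed. The meninges were 1 cluster of 1033 spots, between 156 and 204 per section, led by Myoc, Ptgds, Mgp and Fmod. At a finer clustering resolution (1.2), only 371 spots kept that name. An unnamed cluster of 664 spots was then led by Myoc. Its leading genes included Vip and Igfn1, as did those of an isocortex cluster. The 1033 spots are therefore not read as border tissue alone. White matter was 1 cluster of 1800 spots whose median UMI count was 0.466 of that of all spots of the same section (median over the 6), and its leading genes included C4b and Gfap. The hippocampal formation held only 63 spots in young 1, against 187 to 292 in the other sections. A spot mixes several cells, and fewer cells of a type cannot be told apart from less RNA per cell. Values below are CPM, a gene's UMIs scaled to a common total of the section or region with TMM factors, and log2 fold changes are from edgeR with their standard error (SE).

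**Figure D1:**
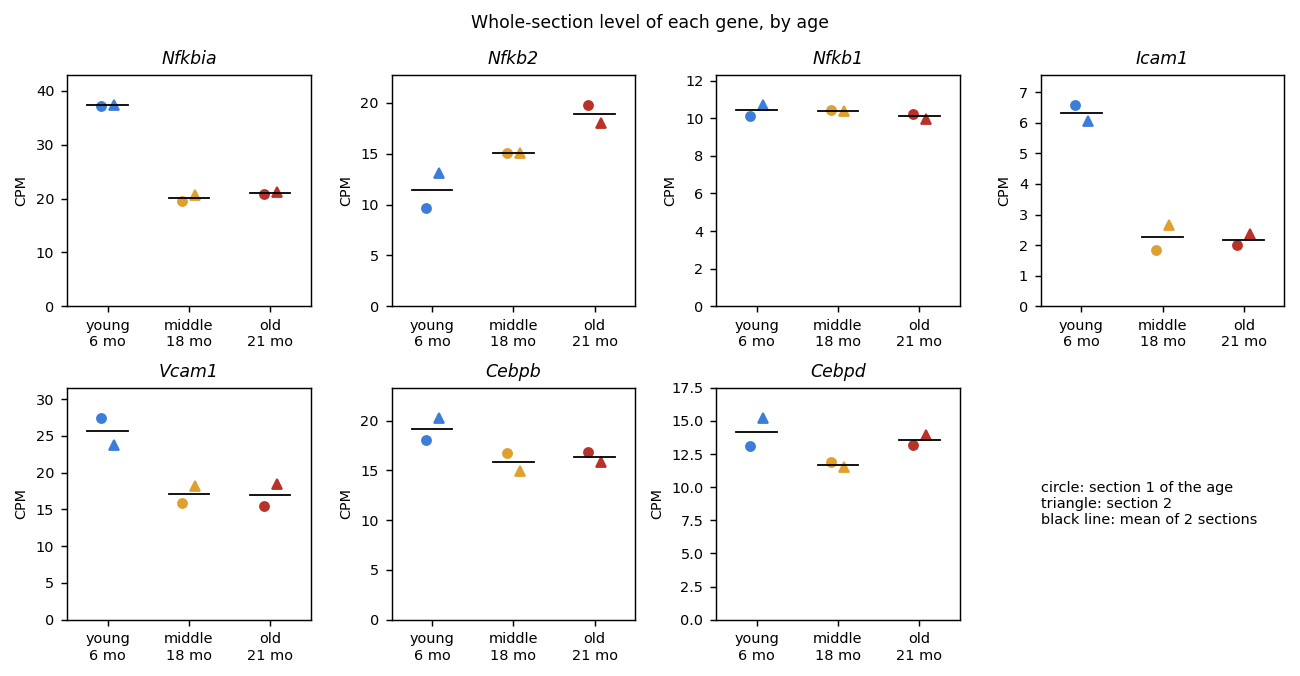
Level of each member in whole sections (CPM, linear axis from 0). Points are the 6 sections, coloured by age (circle section 1, triangle section 2), and black lines are the mean of the 2 sections of an age. Nfkbia, Icam1 and Vcam1 lie lower in the 4 middle and old sections than in the young ones, Nfkb2 is highest in the old ones, and Nfkb1 is level.

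In whole sections, the inhibitor gene Nfkbia and both adhesion genes were lower at 18 and 21 months than at 6 months, while Nfkb2 was higher and Nfkb1 hardly differed. Nfkbia stood at 37.2 CPM in young 1 and 37.4 in young 2, at 19.5 and 20.7 in middle 1 and 2, and at 20.9 and 21.2 in old 1 and 2. The young sections lay far above the other 4, and both old sections lay slightly above both middle ones. Young sections averaged 37.3 ± 0.167 CPM (SD, n = 2) and old sections 21.1 ± 0.197 (SD, n = 2). The log2 difference was -0.82 (SE 0.054), and old sections differed from middle ones by only 0.07.

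Icam1, a low transcript with 139 to 489 UMIs per section, measured 6.59 and 6.06 CPM in young, 1.85 and 2.67 in middle and 2.00 and 2.36 in old sections. The young sections were again both above all others, by a log2 difference of -1.54 (SE 0.18) for old and -1.48 for middle sections. Vcam1 measured 27.4 and 23.8 CPM in young, 15.9 and 18.2 in middle and 15.5 and 18.5 in old sections. Its young and older sections did not overlap, and its log2 difference was -0.59 in both the middle and the old sections (SE 0.11).

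Nfkb2 went the other way. It measured 9.70 and 13.1 CPM in young, 15.0 and 15.0 in middle and 19.8 and 18.0 in old sections, so that the 3 ages did not overlap and the old ones were highest. The log2 difference from young was 0.73 (SE 0.13) in old and 0.40 in middle sections. It was 0.53 when young 1, the lower of the young sections, was left out, and 0.96 without young 2. For middle sections these values were 0.20 and 0.63. Young 1 held a smaller share of hippocampal spots (2.45%) than the other sections (6.68% to 9.84%). In that region Nfkb2, Cebpb and Cebpd stood at 2.06, 2.08 and 3.61 times their whole-section means. The part of section makeup in the whole-section values of these genes was not tested.

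Nfkb1 lay between 9.95 and 10.7 CPM in all 6 sections (log2 difference of old from young -0.05), and old and young sections overlapped. Cebpb measured 18.1 and 20.3 CPM in young, 16.8 and 14.9 in middle and 16.8 and 15.9 in old sections, a difference of -0.23 with no overlap. Cebpd was at 13.1 and 15.2 CPM in young, 11.9 and 11.5 in middle and 13.2 and 14.0 in old sections. Its old sections lay within the range of the young ones (-0.06), and the sign of that difference changed when young 2 was left out (0.04).

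Of the 7 members, 2 (Nfkbia and Icam1, both lower) passed an adjusted p under 0.05 in edgeR's quasi-likelihood fit of old against young sections, where 0.164% of 17673 genes did. The same 2 passed in middle against young, against 0.0679% of all genes, and those fits share the young sections. Old against middle gave 0 calls among all genes (0%) with edgeR, 361 genes at an unadjusted p under 0.05 and 0 calls with DESeq2. The ages did not overlap in 5 of 7 members for old against young (43.8% of all genes), in 6 for middle against young (37.9%) and in 4 for old against middle (32.7%). Since the list came from these differences, nothing is read from these counts. The call of Icam1 for old against young was lost when young 1, old 1 or old 2 was left out. For middle against young it was lost when any 1 of the 6 sections was left out and was made in only 3 of 12 alternatives, and that of Nfkbia was lost without middle 1.

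**Figure D2:**
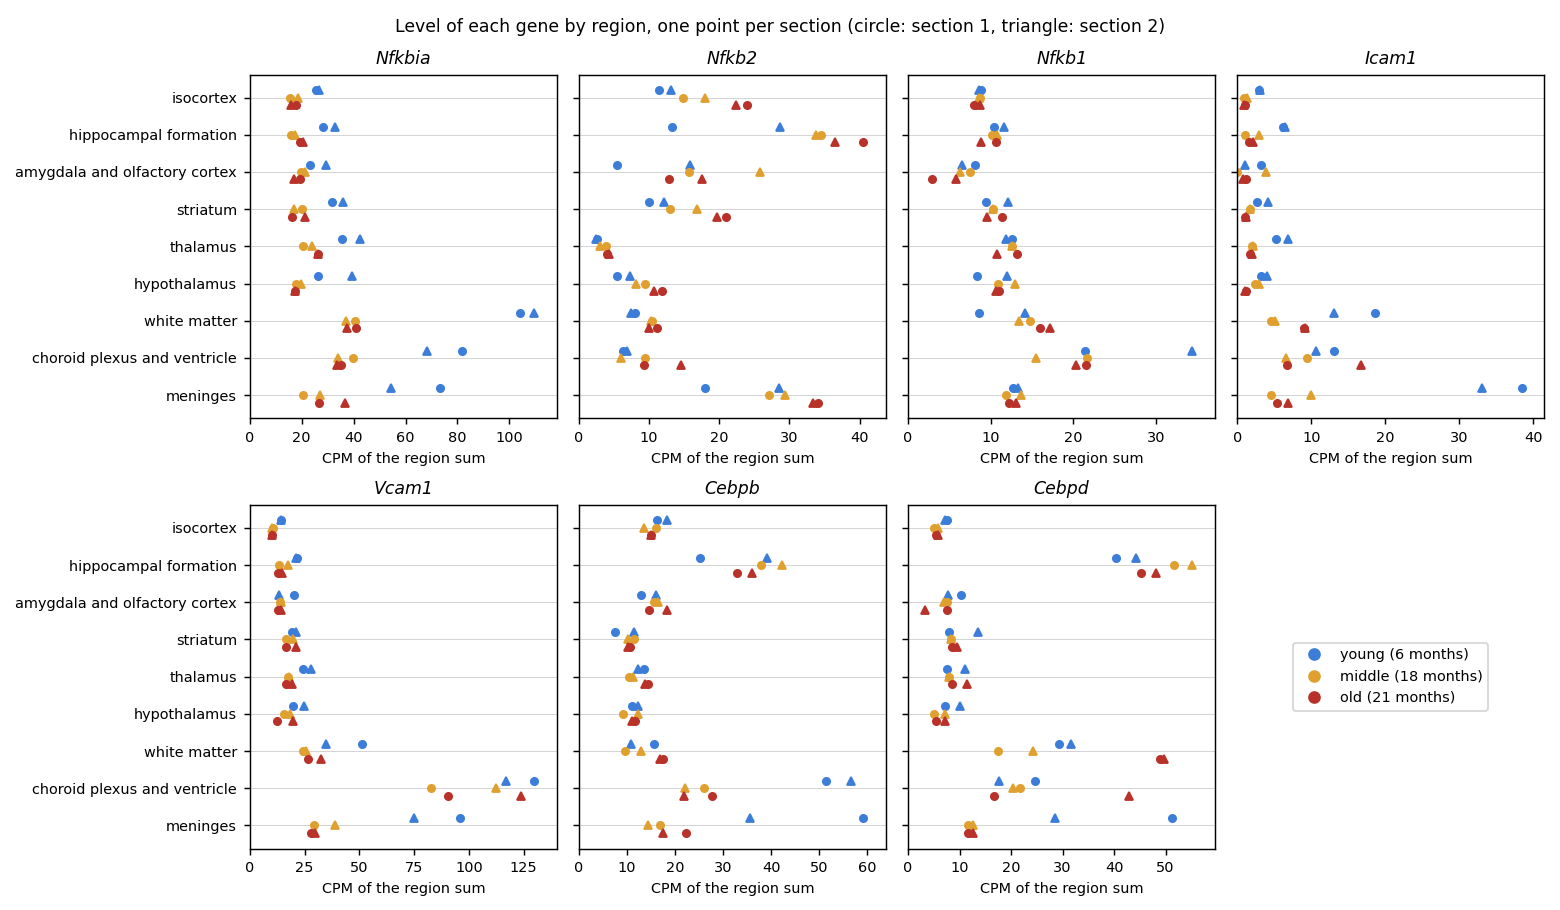
Level of each member by region (CPM without TMM scaling, linear axes from 0), with 1 point per section coloured by age. Vcam1 and Nfkb1 are highest in the choroid plexus, Cebpd is highest in mean in the hippocampal formation, and in meninges the young points of Icam1, Vcam1, Cebpb and Cebpd stand above the rest.

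Where the members lay in the brain differed from gene to gene. Regions are compared here within a gene, as the mean of the 6 sections in CPM without TMM scaling (± SD, n = 6), and neighbours in the order are called apart where they differ by more than that spread. Meninges are the cluster of 1033 spots here. In the 371 spots that kept the name at resolution 1.2, every member except Nfkb2 was higher in each section. The place of meninges in these orders is thus that of the larger cluster. Nfkbia ran from 61.6 ± 35.1 in white matter over 48.7 ± 20.9 in choroid plexus and ventricle and 39.7 ± 20.2 in meninges to 20.0 ± 4.86 in isocortex. No neighbours in that order were apart, since the 3 highest regions were also those with the widest spread over the ages. That spread includes the age differences and leaves out that the regions come from the same sections. Within each section, Nfkbia was higher in white matter than in choroid plexus and ventricle, though only by 40.4 against 39.8 in middle 1.

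Nfkb2 had another map, with the hippocampal formation (31.2 ± 9.58) and meninges (28.4 ± 5.81) above isocortex (17.3 ± 5.08), amygdala and olfactory cortex, and striatum. It was lowest in thalamus (3.32 ± 0.773). The steps after meninges, from striatum (15.4 ± 4.39) to white matter (9.53 ± 1.49) and before thalamus were beyond the spread. Nfkb1 was highest in choroid plexus and ventricle (22.5 ± 6.30), apart from the next region, white matter (14.0 ± 3.0). It was lowest in amygdala and olfactory cortex (6.20 ± 1.80). In meninges Nfkb1 stood at 12.8 ± 0.693 in the larger cluster, but at 17.5 to 25.1 CPM in the 371 spots of resolution 1.2. White matter as the next region is thus given for the larger cluster.

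Icam1 was highest in meninges (16.4 ± 15.2), choroid plexus and ventricle (10.5 ± 3.91) and white matter (9.93 ± 5.26), 3 regions that were not apart from each other. The step from white matter to the next region was beyond the spread. In the cluster of 1033 spots, the first place of meninges came from the young sections (mean 35.8). At 18 months meninges (7.24) lay below choroid plexus and ventricle (7.99). At 21 months meninges (6.14) lay below choroid plexus and ventricle (11.8) and white matter (9.10). This order at the older ages is given for the larger cluster only. In the 371 spots still named meninges at resolution 1.2, Icam1 was at 9.93 and 32.4 CPM in middle and 12.9 and 18.6 in old sections. Its low end was isocortex (1.72 ± 1.02) and amygdala and olfactory cortex (1.68 ± 1.54). Vcam1 was led by choroid plexus and ventricle (109 ± 18.8), followed at a distance by meninges (49.4 ± 28.9) and white matter (32.6 ± 10.0), and lowest in isocortex (11.6 ± 2.06). In the 371 spots, Vcam1 was at 183 and 155 CPM in young sections, where choroid plexus and ventricle averaged 123. In the older sections it was at 41.8 to 64.8 CPM in these spots.

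The C/EBP genes had their highest means in the hippocampal formation, though not at every age. Cebpd stood at 47.5 ± 5.34 in the hippocampal formation, apart from white matter (33.5 ± 13.2), and at 6.12 ± 1.03 in isocortex. In old sections alone, white matter (49.3) lay above the hippocampal formation (46.7). Cebpb was at 35.6 ± 5.95 in the hippocampal formation, 34.3 ± 15.5 in choroid plexus and ventricle and 27.6 ± 17.2 in meninges, which were not apart, and lowest in striatum (10.2 ± 1.49). In young sections alone, Cebpb was higher in choroid plexus and ventricle (54.0) and meninges (47.4) than in the hippocampal formation (32.2). In the 371 meningeal spots of resolution 1.2, Cebpb was at 123 and 72.9 CPM in young and 21.9 to 29.8 in the older sections.

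**Figure D3:**
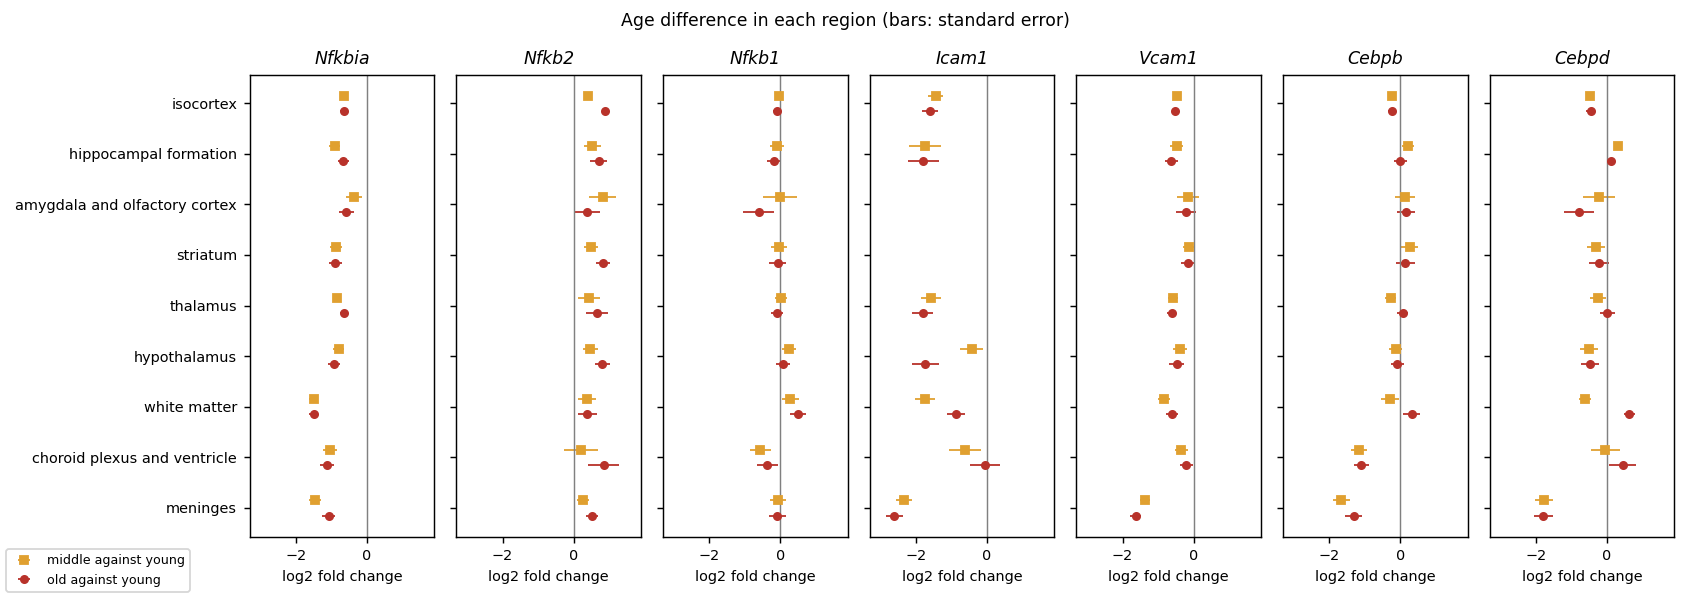
Age difference of each member in each region, as log2 fold change of middle (squares) and old (circles) against young sections, with bars of 1 standard error. Nfkbia lies left of 0 and Nfkb2 right of 0 in all 9 regions, and Icam1, Vcam1, Cebpb and Cebpd reach their lowest values in meninges. Icam1 was not fitted in striatum or in amygdala and olfactory cortex, where its counts were too low.

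By region, Nfkbia was lower in old than in young sections in 9 of 9 regions, with no overlap of the sections in any, from -1.50 in white matter to -0.58 in amygdala and olfactory cortex. Nfkb2 was higher in 9 of 9, from 0.38 in amygdala and olfactory cortex to 0.89 in isocortex, with no overlap in 8. Icam1 was lower in all 7 regions in which it could be fitted, from -2.60 in meninges to -0.07 in choroid plexus and ventricle, where old and young sections overlapped. Vcam1 was lower in 9 of 9, from -1.62 in meninges to -0.16 in striatum, with no overlap in 7. Nfkb1 (7 lower, 2 higher), Cebpb (4 lower, 5 higher) and Cebpd (5 lower, 4 higher) had no common direction. Regions are sums over clusters of the same sections, so these counts are not independent of each other.

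The spots named meninges, after the membranes around the brain that hold fibroblasts, vessels and resident macrophages, showed the widest age differences of Icam1, Vcam1, Cebpb and Cebpd. Icam1 was at 39.4 CPM (167 UMIs) in young 1 and 33.5 (117 UMIs) in young 2, against 4.46 (16 UMIs) in middle 1, 9.96 (37 UMIs) in middle 2, 5.38 in old 1 and 6.73 in old 2 (19 UMIs each). Young meninges averaged 36.5 ± 4.2 CPM (SD, n = 2) and old meninges 6.06 ± 0.957 (SD, n = 2), 6.08-fold lower (log2 -2.60, SE 0.25). Meningeal spots held 34.2% and 24.8% of all Icam1 UMIs of the young sections, and 11.5% to 18.1% in the 4 older ones. Their share of the UMIs of all genes was 4.53% to 5.65% in every section.

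Vcam1 measured 98.5 and 75.9 CPM in young meninges, 29.0 and 38.8 in middle and 27.8 and 29.1 in old (log2 -1.62, SE 0.15). Nfkbia measured 75.1 and 55.0, then 20.3 and 26.9, then 26.6 and 35.8 (log2 -1.08, SE 0.17). In both genes each young section stood above every older section, and for Nfkbia the old sections were not below the middle ones.

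In meninges both C/EBP genes were highest in the young sections, with a wide gap between that pair. Cebpb was at 60.7 CPM in young 1 and 36.1 in young 2, against 14.3 to 22.1 in the older sections (log2 -1.31, SE 0.23). Cebpd was at 52.7 and 28.9 in young sections, against 11.4 to 12.7 in the older ones (log2 -1.79, SE 0.26). Without young 1, these differences were -0.87 for Cebpb and -1.27 for Cebpd, and the calls of both genes were lost when either middle or either old section was left out. That of Cebpb was also lost with slide as a term, after thinning and at resolution 0.5, and that of Nfkbia without old 1.

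The other members differed less there. Nfkb2 measured 18.4 and 28.9 CPM in young, 26.7 and 29.4 in middle and 34.0 and 32.6 in old meninges (0.51, SE 0.18), and 0.20 without young 1. Nfkb1 stayed between 11.7 and 13.7 CPM in all 6 sections (-0.09, SE 0.23). Its groups of old and young sections did not overlap, but the gap was a fraction of the SE. Members called in meninges for old against young were 5 of 7, all lower (0.24% of 12919 genes were called), and 5 of 7, all lower, for middle against young (0.372%). The sections of old and young animals did not overlap in 7 of 7 members (34% of genes), and those of middle and young in 5 (32.8%).

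With a finer clustering (Leiden resolution 1.2), only 371 spots kept the name meninges. In every section, the levels of Nfkbia, Nfkb1, Icam1, Vcam1, Cebpb and Cebpd there were above those of the larger cluster. Those of Nfkb2 were above it only in the old sections. In this core, given in CPM without TMM scaling, Icam1 was at 77.4 and 98.4 CPM in young, 9.93 and 32.4 in middle and 12.9 and 18.6 in old sections. Vcam1 was at 183 and 155, then 49.7 and 64.8, then 41.8 and 43.7 CPM. The young sections were above all others in both genes, as in the larger cluster. The difference of Nfkb2 was wider in the core, 1.26 on the log2 scale, with 12.7 and 20.8 CPM in young and 36.8 and 39.3 in old sections.

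Markers of the cell types of the meninges were read beside these values. The summed level of 10 fibroblast markers was 938 and 624 CPM in young, 533 and 701 in middle and 658 and 770 in old meninges, with young 1 highest. That of 10 endothelial markers was 713 and 666, then 618 and 672, then 600 and 686 CPM, and that of 8 border macrophage markers was 56.2 and 41.8, then 22.0 and 36.4, then 45.6 and 36.2 CPM. None of these 28 markers was called in old against young meninges, 0 of the 28 was at 0 in all sections, and the old sections overlapped with the young in the fibroblast and endothelial sums and for border macrophages. In a list of 9 neutrophil and lymphocyte markers, S100a8 (13 and 7.76 CPM in young, 25.6 and 21.3 in old) and S100a9 (1.03, SE 0.23) rose, 2 of 4 tested, and Cd3g was at 0 in every section. The part of cell makeup in the differences of the members was not tested.

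In white matter, Nfkbia had its widest difference and Cebpd was higher at 21 months, not lower. Nfkbia was at 108 and 111 CPM in young, 40.7 and 36.3 in middle and 40.6 and 36.7 in old sections, from 130 UMIs or more in each. The young mean was 109 ± 1.89 (SD, n = 2) and the old mean 38.7 ± 2.70 (SD, n = 2), a log2 difference of -1.50 (SE 0.12) that was as wide at 18 months. Cebpd was at 30.4 and 32.1 CPM in young, 17.6 and 23.8 in middle and 48.3 and 48.5 in old sections. It was thus lowest at 18 months (-0.60 from young) and highest at 21 months (0.63 from young, SE 0.15, and 1.24 from middle).

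Icam1 in white matter was at 19.4 and 13.2 CPM in young, 4.63 and 5.03 in middle and 8.95 and 8.92 in old sections, lower than young by -1.75 at 18 months and -0.87 at 21 months. The latter was -0.56 without young 1 and -1.12 without young 2. Vcam1 was at 53.2 and 35.2, then 24.6 and 25.2, then 26.2 and 31.8 CPM (-0.61, SE 0.18, and -0.28 without young 1). Young 1 was the highest section for both adhesion genes.

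The remaining members in white matter were Nfkb1 at 8.87 and 14.3 CPM in young and 15.8 and 16.8 in old sections (0.50, SE 0.24), Nfkb2 at 8.33 and 7.44 against 11 and 9.71 (0.39), and Cebpb at 16.1 and 10.9 against 17.3 and 16.5 (0.32). The old sections were higher in each, but the size for Nfkb1 and Cebpb hung on the young pair. Nfkb2 was at 0.29 to 0.48 when each section was left out. Nfkb1 was at 0.18 without young 1 and 0.87 without young 2, and Cebpb at 0.63 and 0.06. Members called in white matter were 2 of 7 for old against young (Nfkbia lower, Cebpd higher, 1.89% of 12754 genes called) and 3 of 7, all lower, for middle against young (2.68%). Sections of old and young did not overlap in 7 members (41.6% of genes), and those of middle and young in 5 (44.8%). The call of Cebpd was lost in 6 of 14 alternatives, among them slide as a term and DESeq2.

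Microglia markers moved in the same spots. Their sum over 10 genes in white matter was 1149 and 1290 CPM in young, 1621 and 1888 in middle and 2359 and 2814 in old sections, and 8 of 10 rose in old against young, C1qa by 1.29 (SE 0.13) and Trem2 by 1.68 (SE 0.13). Of 10 astrocyte markers, Gfap (1.00, SE 0.16) and Aldh1l1 (0.62, SE 0.13) rose. No marker of either list was at 0 in all sections. Their part in the higher Cebpd of old white matter was not tested.

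In isocortex, the same sections gave a narrower Nfkbia difference and the clearest one of Nfkb2. Nfkb2 was at 11.7 and 13.1 CPM in young, 15.1 and 17.7 in middle and 23.5 and 22.3 in old sections. The ages did not overlap at any step, and the old mean of 22.9 ± 0.869 (SD, n = 2) stood 1.85-fold above the young mean of 12.4 ± 1.02 (log2 0.89, SE 0.10, and 0.81 to 0.97 over 14 alternatives). Nfkbia was at 26.3 and 26.5, then 15.9 and 18.3, then 17.7 and 15.8 CPM (-0.66, SE 0.093). Icam1 was at 3.01 and 3.10, then 0.950 and 1.32, then 1.07 and 0.929 CPM (-1.60, SE 0.23).

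Vcam1 in isocortex was at 14.4 CPM in both young and 9.97 to 10.7 in the 4 older sections (-0.53), and Cebpd at 7.77 and 7.23 against 5.14 to 5.72 (-0.45). Cebpb (-0.24) and Nfkb1 (-0.10) differed least. Members called were 3 of 7 for old against young, Nfkb2 higher and Nfkbia and Icam1 lower (0.213% of 15509 genes), and 2 of 7, both lower, for middle against young (0.219%). Sections did not overlap in 6 members for old against young (41.4% of genes) and in 6 for middle against young (38.9%). The Icam1 call was lost at the finer clustering and without old 1 or old 2, and that of Nfkbia without old 2.

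In the other regions, the choroid plexus and ventricle held high Nfkbia, at 84.2 and 65.7 CPM in young and 33.4 to 40.5 in the 4 older sections (-1.12 for old, SE 0.21). Cebpb there was at 52.9 and 54.6 CPM in young and 21.7 to 27.8 in older sections (-1.09). Vcam1, highest in this region, overlapped between old and young but not between middle and young sections, at 134 and 113 CPM in young, 83.9 and 110 in middle and 90.9 and 124 in old sections. Icam1 had the same pattern there, at 13.5 and 10.3 in young, 9.57 and 6.45 in middle and 6.80 and 16.8 in old sections.

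In the hippocampal formation, Nfkb2 was at 13.5 and 28.5 CPM in young, 34.7 and 33.7 in middle and 40.7 and 36.2 in old sections. The low value of young 1 came from the 63 spots named above. Of these, 0 lay in the hippocampal cluster led by Fibcd1 and Spink8, which held 26 to 48 spots in the other sections. The part of that section's makeup in the difference was not tested. Cebpd in this region was at 40.9 to 55.1 CPM in all 6 sections (0.12 for old against young). Icam1 in amygdala and olfactory cortex was at 0 to 6 UMIs per section, with 0 in middle 1, which allows up to 2.05 CPM (3 counts, counting error only).

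Genes whose level followed that of a member were sought over the 54 sums of 9 regions in 6 sections, among 9757 genes with a mean of at least 10 CPM. These points share sections and regions, so Pearson's r on log2(CPM + 1) is a description. Nfkbia was followed most closely by Sgk1 (r = 0.84), the glucocorticoid-induced kinase, then Tob2 (0.83) and Tcf12 (0.78). Icam1 was followed by 2 other members, Nfkbia (0.83) and Vcam1 (0.83), and by Plat (0.81), tissue plasminogen activator.

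Vcam1 was closest to Serpinh1 (0.94), the collagen chaperone, and to Zfp36l1 and Gpx8 (0.92 each). Nfkb2 was closest to 3 genes of forebrain neurons, Ddn (0.86), Psd (0.85) and Itpka (0.84), and Cebpd to Homer3 (0.86), Zbtb20 (0.84) and Ehd1 (0.82). Itpka and Homer3 are among the markers by which the hippocampal formation was named. Nfkb1 was closest to Tmem47 (0.88), Sil1 (0.86) and Tpp1 (0.85), and Cebpb to Ackr3 (0.78), Anxa11 (0.76) and Gm17750 (0.74). Between members, Nfkb2 had weak negative r with Nfkbia (-0.32), Nfkb1 (-0.25), Vcam1 (-0.20) and Icam1 (-0.10). Its r was positive with Cebpb (0.36) and Cebpd (0.24). These values mix differences between regions with those between ages.

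The rest of the pathway was read from 7 lists of 102 other genes: ligands, receptors and adaptors, kinases, subunits, inhibitors, targets, other C/EBP genes, and adhesion molecules with their receptors. In whole sections 92 could be tested for old against young, and 1 rose (59 higher, 33 lower). That gene was Itgax, the integrin CD11c of activated microglia, at 0.0943 and 0.0773 CPM in young, 0.707 and 0.524 in middle and 0.837 and 1.57 in old sections (3.78, SE 0.44). None of 92 was called in middle against young or in old against middle. With slide as a term, no gene of these lists was called for old against young, Itgax included.

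By role, the 3 other subunits gave 0 calls of 3, with Rela at 0.06 (SE 0.077) and Relb at 0.11 (SE 0.11) and a median of 0.06, against 0.00 over all genes tested. The kinases gave 0 calls of 9 (median -0.05), with Ikbkb at 0.05 (SE 0.24) and Tab2 at -0.10 (SE 0.064). Ligands, receptors and adaptors gave 0 of 24 (median 0.10), with Irak1 at 0.02 and Traf3 at -0.12. The other inhibitors gave 0 of 14 (median 0.02), with Cyld at -0.07 and Nfkbib at 0.11.

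Other NF-kB targets gave 0 calls of 19 in whole sections (median 0.08), with the mitochondrial superoxide dismutase Sod2 at 0.00 (SE 0.050) and the survival gene Bcl2l1 at -0.03 (SE 0.057). Other C/EBP genes gave 0 of 3, with Ddit3 at 0.10 and Cebpg at -0.14. The adhesion list gave Itgax alone of 20 (median 0.17), and Sele, the endothelial selectin, was at 0 in every section. The summed level of the targets was 413 and 422 CPM in young and 419 and 416 in old sections, and that of the subunits 33.8 and 31.2 against 32.7 and 33.8, so that old and young sections overlapped in both sums.

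In isocortex 0 of 83 list genes were called for old against young (45 higher, 38 lower). In meninges 1 of 69 was called (25 higher, 44 lower), the inhibitor Nfkbiz, which is itself induced by NF-kB. Nfkbiz fell by 1.69 on the log2 scale (SE 0.35), from 16.8 and 9.20 CPM in young to 5.40 and 2.49 in old sections, with 3.35 and 2.16 in middle ones. All 4 older sections were below both young ones, the order seen in Icam1 and Vcam1.

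In white matter 10 of 68 genes were called, all higher (44 higher, 24 lower), beside 241 calls (1.89%) over all genes there. Of the receptors, Tlr2 rose by 2.28 (SE 0.34) and Tnfrsf1a, the TNF receptor, by 0.92 (SE 0.20). Of the targets, Bcl2a1b rose by 2.33 (SE 0.33) and Csf1, the microglial growth factor, by 0.63 (SE 0.11). Of the inhibitors, Bcl3, a nuclear partner of p52, rose from 0 and 0.574 CPM in young to 5.39 and 6.58 in old sections. Its young level lay near the floor, since young white matter held only 3862012 and 3532341 UMIs over all genes.

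Among adhesion genes in white matter, the leukocyte integrins Itgax, Itgb2 (1.47, SE 0.20) and Itgam (1.01, SE 0.20) rose, as did Cd44 (1.21, SE 0.27) and F11r (0.81, SE 0.19). Itgax stood at 0.539 and 0.287 CPM in young, 5.14 and 4.49 in middle and 9.58 and 15.0 in old sections, and its young values also lay near the floor. Itgb2, Itgam, Itgax and Tlr2 are expressed by microglia, whose marker sums are given above, and the part of these cells was not tested. The subunits, kinases and other C/EBP genes had 0 calls there.

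**Figure D4:**
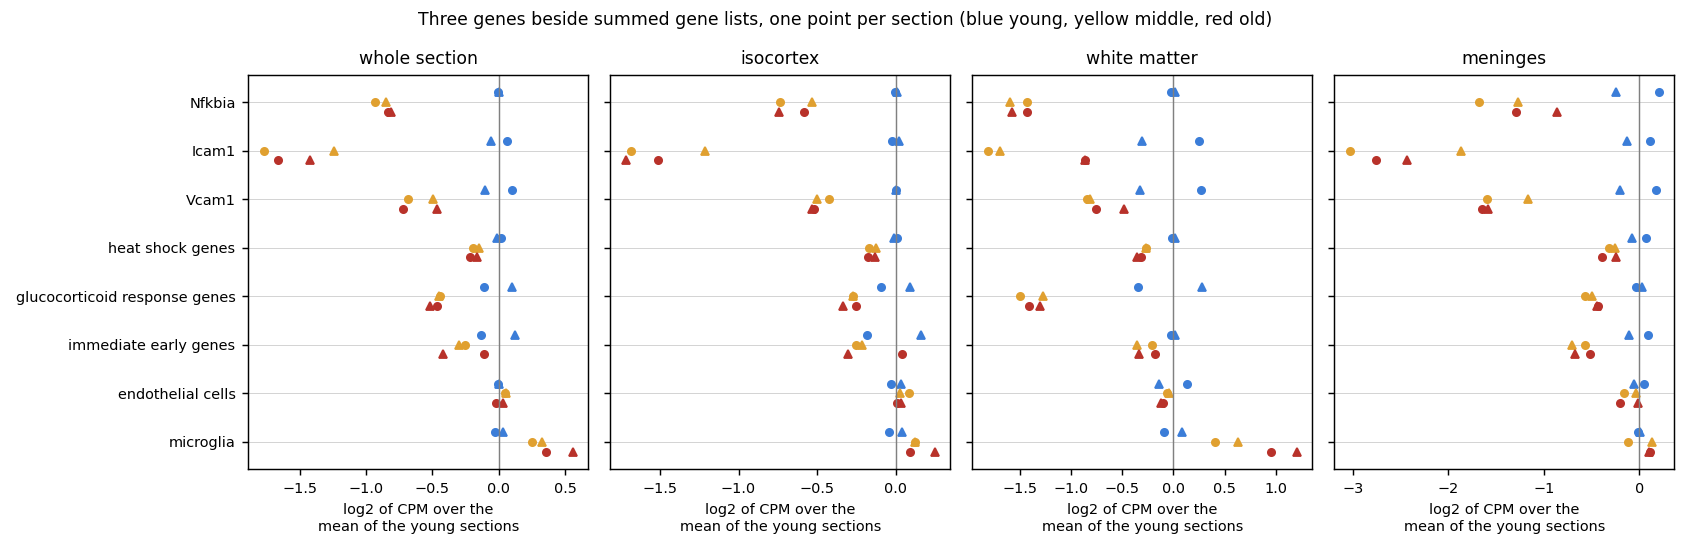
Levels of Nfkbia, Icam1 and Vcam1 and summed levels of 5 gene lists in whole sections and 3 regions, as log2 of CPM over the mean of the young sections, with 1 point per section (circle section 1, triangle section 2) coloured by age. Heat shock and glucocorticoid response sums lie higher in the young sections, the endothelial sum lies near 0, and the microglia sum of white matter lies highest in the old ones.

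Lists of stress and activity genes were read in the same sections. Of 11 heat shock genes, 5 fell in old against young whole sections (Hspa1a by 1.74, SE 0.081, Hspa1b by 1.86, SE 0.11, and Dnajb1, Hspb1 and Hsph1), and 11 of 11 were lower. Their sum was 4651 and 4563 CPM in young, 4026 and 4158 in middle and 3970 and 4106 in old sections. Of 12 glucocorticoid response genes, Sgk1 fell by 1.21 (SE 0.13), from 143 and 174 CPM in young to 67.0 and 69.9 in old sections, and the list summed to 563 and 653 in young against 425 to 447 in the 4 older sections. No gene of either list was at 0 in all sections.

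In white matter the glucocorticoid response sum was 1069.8 and 1646.4 CPM in young and 482 to 564 in older sections, with Tsc22d3, Cdkn1a, Errfi1 and Klf9 called lower. In meninges the sum was 616 and 643 CPM in young and 425 to 467 in older sections, and Sgk1 (fell by 0.87, SE 0.13) and Errfi1 (fell by 1.57, SE 0.15) were called. The sum of 14 immediate early genes in meninges was 1547 and 1349 CPM in young and 886 to 1012 in older sections, with Egr1, Arc and Klf4 called lower of 14 tested. In whole sections 0 of 14 immediate early genes were called and 12 were lower. The heat shock and glucocorticoid response sums, like Nfkbia, Icam1 and Vcam1, were higher in both young sections than in the 4 older ones in whole sections, white matter and meninges. Their part in the differences of the members was not tested.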

How the data were processed

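The authors deposited raw UMI counts per gene and spot for each section, written by Space Ranger 1.3.1, per the file headers, with the build mm10 per the submitters' processing notes; the annotation and the spot filter are not given in the sources used here. Images and spot positions were not used here. Spots under 500 UMIs were left out. Spots scaled to 10000 UMIs were clustered with scanpy 1.11.5 (2000 variable genes without 227 listed genes, 30 principal components, 20 neighbours, Leiden resolution 0.8), and a cluster took a region's name from its 50 leading genes when these held 3 or more of that region's markers, 1 or more of them in the first 10, and 2 times as many as of any other region. Counts were summed per section or per region and section and fitted with edgeR 4.0.16 (quasi-likelihood, filterByExpr, TMM normalisation), with age as the only term and all 6 sections in the fit. Calls are at a two-sided Benjamini-Hochberg adjusted p under 0.05 over all genes tested, and the p-values measure only the spread between these sections. Replicates differed beyond sampling noise (chi-square over its degrees of freedom 22.7 to 43.0). The fit was tested on simulated counts. Members and gene lists were chosen with earlier results of these data known. Every called gene of a list was named (up to 5), or, with none called, the 2 of highest mean CPM, and for each member the 3 genes of highest correlation. Alternatives were RLE factors, DESeq2 1.42.0, all genes with a count, slide or replicate number as a term, thinning to the smallest total, resolutions 0.5 and 1.2, and each section left out.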

Additional observations from a re-analysis of the deposited data

Results flagged for a closer look

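For 3 members, old and young sections did not overlap in either of 2 regions, but the differences had opposite signs. Old and young sections did not overlap for 41.6% of all genes in white matter and 34% in meninges. That share was not counted in choroid plexus and ventricle, and nothing is read from the number of members. Nfkb1 was higher in old than in young white matter (log2 0.5012) and lower in choroid plexus and ventricle (-0.3603). Cebpb was higher in old white matter (0.3174) and lower in old meninges (-1.307). Cebpd was higher in old white matter (0.6346) and lower in old meninges (-1.786). Each rested on at least 20 UMIs in every section, and the difference between regions was not tested. The white matter values of Nfkb1 and Cebpb each hung on 1 young section: Nfkb1 was at 0.18 without young 1, and Cebpb at 0.06 without young 2. That of Cebpd was at 0.59 to 0.67 when each section was left out. In choroid plexus and ventricle, Nfkb1 was at 22.1 and 33.2 CPM in young and 21.6 and 20.4 in old sections, so that the higher young value came from 1 section.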

How the results depend on the processing

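Across 546 alternative values of the members' log2 fold changes, 43 moved by more than 1 SD of the replicates and 0 changed sign among called values. Of 126 alternative region levels, 7 moved by more than 1 SD over the 6 sections of all ages. Among these were Nfkbia, Nfkb1, Icam1, Vcam1, Cebpb and Cebpd in meninges at resolution 1.2. Their levels were higher in the 371 spots kept there than in the larger cluster. Counts of called genes over all genes moved more. In old against young whole sections, 29 genes were called, against 194 with DESeq2, 113 without the filter on low counts, 7 with slide as a term and 6 to 75 when each section was left out. In middle against young, 12 became 70, 58, 3 and 1 to 33 in the same order, and in old against middle 0 became 0 to 1 with a section left out. In isocortex 33 became 266 without the filter, 51 at resolution 1.2 and 9 to 103 with a section left out. In white matter 241 became 113 with DESeq2, 428 without the filter, 114 with slide as a term, 140 at resolution 0.5 and 80 to 283 with a section left out. In meninges 31 became 19 with DESeq2, 62 without the filter and 20 to 111 with a section left out. Of the pathway genes, 1 became 5 with DESeq2, 3 without the filter, 0 with slide as a term and 0 to 2 with a section left out. The cause was not tested. With the replicate number as a block, calls were 21, 10 and 0 in whole sections, 29 in isocortex, 264 in white matter and 44 in meninges, and 1 for the pathway genes; same-numbered sections correlated by -0.00084 (young and middle), 0.184 (young and old) and 0.336 (middle and old), so the numbers are not taken to pair the sections. Depth limits Icam1, with 16 to 37 UMIs in the older meninges and 0 to 6 in amygdala and olfactory cortex. It also limits the list genes Bcl3, Itgax and Nfkbiz, whose lowest levels rested on few UMIs.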
